A study of Mus musculus with 8 samples.

Results

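The mouse Hox clusters A, B, C and D hold 39 protein-coding genes, 11 in HoxA, 10 in HoxB, 9 in HoxC and 9 in HoxD. Members were chosen by symbol and position alone: every CpG cytosine with at least 10 reads in all 8 libraries that lay inside a Hox gene or within 5 kb of one, or between the first and the last gene of a cluster. This gave 4610 cytosines, 0.305% of the 1510385 cytosines covered to that depth in all 8 libraries. Of these, 4308 lay in a gene window (the gene's span with 5 kb either side), and all 39 genes had a window. Because the genes stand close together, 1905 of the window cytosines (44.2%) lay in more than 1 window, so neighbouring genes are not independent measurements.

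The libraries were reduced representation bisulfite sequencing (RRBS), which reads DNA methylation at single cytosines in CpG-rich fragments. The cocaine group was 4 male C57 BL/6 mice in the cocaine self-administration arm, 1 library each, and it was compared with 4 male C57 BL/6 mice in the saline arm of the same procedure. DNA came from a brain layer labelled dDG DGC, taken by dissection. No sorting of cells is named in the labels, and the labels read here state no age, dose or interval between the last session and dissection.

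Hox genes encode homeodomain transcription factors that give cells their position along the body axis. Their order along a chromosome follows their order of use in the embryo: low-numbered genes act in the hindbrain and high-numbered genes in the tail, limbs and genital bud, and genes with the same number in different clusters (paralogues) descend from 1 ancestral gene. The forebrain develops in front of the Hox domain, and in tissues that do not use them the clusters are typically held silent by Polycomb proteins, with their CpG-rich DNA free of methylation.

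The promoters of 22 Hox genes were found in the RefSeq promoter table (build GRCm38.p6), 24 sequences in all, each read here over the 250 bases before the gene's start. They held a median of 12.5 CpGs, against 6 over all 32851 promoters of the table. The motif CCGG, which reads the same on both strands, was present in 18 of the 24 (75%) and in 47.1% of all promoters. In 13 of the 24 at least 1 CpG was measured in every mouse. Those of 5 genes are printed because the levels described below turn on them; capitals mark the CpGs that were measured on at least 1 strand.
Hoxd4, chr2:74721728-74721977, plus strand: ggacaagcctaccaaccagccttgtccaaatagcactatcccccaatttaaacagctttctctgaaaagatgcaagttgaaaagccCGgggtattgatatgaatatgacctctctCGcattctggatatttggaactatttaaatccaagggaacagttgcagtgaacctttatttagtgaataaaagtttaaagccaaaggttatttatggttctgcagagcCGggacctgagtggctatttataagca
Hoxd1, chr2:74762730-74762979, plus strand: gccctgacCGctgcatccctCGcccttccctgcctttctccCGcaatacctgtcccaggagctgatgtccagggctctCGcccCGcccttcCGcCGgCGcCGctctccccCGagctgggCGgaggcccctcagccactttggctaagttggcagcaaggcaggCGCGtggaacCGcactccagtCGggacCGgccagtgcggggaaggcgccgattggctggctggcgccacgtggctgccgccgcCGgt
Hoxd13, chr2:74667975-74668224, plus strand: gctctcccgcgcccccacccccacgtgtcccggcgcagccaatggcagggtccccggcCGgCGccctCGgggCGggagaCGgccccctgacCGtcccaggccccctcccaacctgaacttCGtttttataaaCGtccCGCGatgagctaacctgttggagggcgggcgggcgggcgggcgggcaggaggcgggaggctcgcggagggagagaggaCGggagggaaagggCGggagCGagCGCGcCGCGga
Hoxa13, chr6:52260881-52261130, minus strand: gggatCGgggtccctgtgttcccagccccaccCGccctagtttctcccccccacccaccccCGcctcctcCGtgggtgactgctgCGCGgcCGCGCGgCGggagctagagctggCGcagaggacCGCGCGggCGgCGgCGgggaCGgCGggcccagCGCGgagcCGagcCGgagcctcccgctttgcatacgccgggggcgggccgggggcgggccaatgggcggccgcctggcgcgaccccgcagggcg
Hoxa5, chr6:52204588-52204837, minus strand: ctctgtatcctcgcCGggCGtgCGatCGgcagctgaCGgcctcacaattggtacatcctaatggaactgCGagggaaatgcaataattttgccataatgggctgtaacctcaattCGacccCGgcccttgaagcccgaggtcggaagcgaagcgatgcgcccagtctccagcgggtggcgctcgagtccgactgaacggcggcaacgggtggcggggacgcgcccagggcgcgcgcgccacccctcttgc

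The Hoxd4 sequence is the poorest in CpGs of those printed and the most methylated. All 3 of its CpGs were measured, as 4 cytosines, and their mean level was 17.1%, 16.8%, 14.8% and 19.8% in the cocaine mice and 16.1%, 13.7%, 17.5% and 14.1% in the saline mice. The groups overlap. Hoxd1, an anterior gene, showed the opposite extreme at the same cluster: 17 of its 24 CpGs were measured and no mouse exceeded 0.784%. The Hoxd13 promoter, from the gene that patterns digits and the genital bud, had 17 measured CpGs at 1.03%, 0.196%, 0.726% and 0.623% in the cocaine mice, against 10.9%, 3.74%, 1.23% and 1.49% in the saline mice. All 4 cocaine mice lay below all 4 saline mice there, with saline mouse 1 far above the rest. The groups were narrowly apart, with 1.03% the highest cocaine level and 1.23% the lowest saline level. No other measured Hox promoter had groups without overlap. The share over all promoters is not given here, and the Hoxd13 promoter was printed on account of its levels. The Hoxa13 promoter, of the paralogue with a like role in limbs, had 23 measured CpGs at 0.927%, 1.34%, 0.655% and 0.652% in the cocaine mice and 0.661%, 5.34%, 0.752% and 0.687% in the saline mice, so that only saline mouse 2 stood out. The Hoxa5 promoter, of a gene that acts in the lung and the neck, had 8 measured CpGs at 4.17% ± 1.05 in the cocaine mice and 2.96% ± 1.25 in the saline mice (SD, n = 4 each). Promoter levels were not tested as such; the windows around gene starts, tested below, contain them.

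Across the series, 87964952 to 141775386 reads per library fell on listed cytosines, with a median coverage of 34 to 66 reads, and Hox cytosines had a median of 62.3 reads per library against 56.6 for all common cytosines. Mitochondrial cytosines read 0.0399% to 0.154%. If they carry no methylation, this is the level that unconverted reads alone produce there. Conversion at Hox cytosines was not measured. Saline mouse 1 stood apart: among intermediate cytosines with 30 to 40 reads, 14.4% read exactly 0% or 100% in it, against 0.405% to 2.68% in the other 7 libraries. In the same mouse 36.2% of the Hox cytosines with a pooled level from 5% to 95% read 0%, against 8.10% to 23.8% in the others. Most of these Hox cytosines lay under 20%. Over all cytosines with such a pooled level, 6.998% read 0% in saline mouse 1, against 0.856% to 3.62% in the others. Named differences are also given without saline mouse 1, or without another single mouse, where that moves them by over 1.5 times. Markers of the tissue could not be checked by expression; 10 of the 17 listed cell type markers had a measured window, 8 of them at a start and Mbp and Pecam1 at a gene end. The starts of the granule neuron genes Prox1, C1ql2 and Dsp read at most 3.01% in any mouse, but those of the interneuron genes Gad1 and Gad2 (at most 1.91%) and of the endothelial gene Cldn5 (at most 3.38%) were as low, and the oligodendrocyte gene Mbp read 3.42% to 5.56%. The astrocyte genes Gfap (34.6% to 60.6%) and Aldh1l1 (29.96% to 37.1%) and the endothelial gene Pecam1 (63.3% to 91.2%) were higher, so these windows do not identify the cell type. In bulk tissue, a level shared by all cells and a higher level in a fraction of the cells cannot be told apart.

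All 4 clusters were nearly unmethylated in every mouse. HoxA (chr6:52155367-52260880, 1281 cytosines) read 2.69%, 2.64%, 2.12% and 2.71% in the cocaine mice and 2.88%, 3.05%, 2.65% and 2.59% in the saline mice. HoxB (chr11:96194316-96368254, 1059 cytosines) read 5.70%, 5.91%, 5.64% and 6.00% in the cocaine mice and 5.66%, 5.83%, 5.84% and 6.06% in the saline mice. HoxC (chr15:102921131-103036856, 894 cytosines) read 2.73%, 2.99%, 2.89% and 3.35% in the cocaine mice and 3.83%, 3.03%, 3.09% and 3.10% in the saline mice. The groups overlap in these 3 clusters. HoxD (chr2:74668225-74765142, 1227 cytosines) was the least methylated, with 2.09%, 2.05%, 2.03% and 2.26% in the cocaine mice and 2.68%, 2.28%, 2.26% and 2.35% in the saline mice, where all cocaine mice lay below all saline mice by a margin of 0.00125 points.

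Set among 14594 tiles of 100 kb from the rest of the genome, whose median level was 45.4%, the clusters stood at percentiles 1.30 (HoxA), 3.52 (HoxB), 1.56 (HoxC) and 1.08 (HoxD). Most tiles have far fewer cytosines than a Hox cluster. Among the 59 tiles with at least 500 cytosines the median level was 19.5%, and 2 of them read below HoxB. Counted by cytosine, 86.7% of the Hox cytosines had a pooled level under 5%, 11.3% lay from 5% to under 20%, 1.17% from 20% to 80% and 0.803% above 80%. Over all common cytosines the shares were 47.1%, 5.72%, 17.2% and 29.98%.

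**Figure D1:**
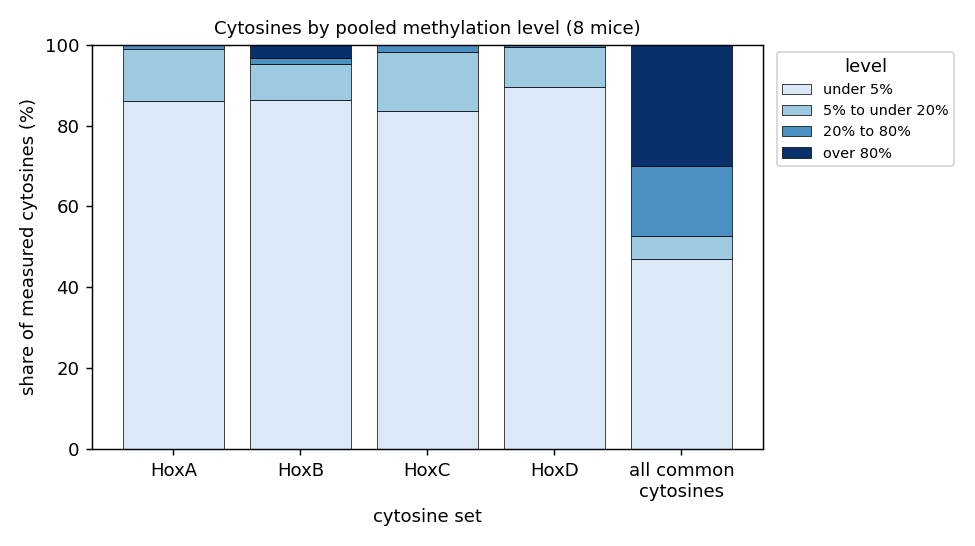
Stacked bars give the share of measured cytosines (vertical axis, %) in 4 classes of pooled methylation level over the 8 mice, for each Hox cluster and for all common cytosines. Cytosines under 5% make up 83.7% (HoxC) to 89.4% (HoxD) of a cluster and 47.1% of all; HoxB alone has a visible class above 80%, 3.40% of its cytosines.

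The DNA beside the clusters was more methylated than the clusters, by a wide margin at 3 of them and a small one at HoxD. In the 100 kb beside each cluster, taken from lower to higher coordinates, the median of the 8 libraries was 48.5% before and 12.3% after HoxA, 36.6% before and 46.0% after HoxB, and 43.1% before and 13.7% after HoxC. In each of the 8 libraries the cluster read lower than both of its sides there (exact paired permutation test, two-sided, p = 0.00781 for each of the 6 sides, the smallest that 8 pairs allow). HoxD passed into low DNA on both sides, with 6.44% before and 3.31% after. It read lower than the side before it in 8 of 8 libraries (exact p = 0.00781) and lower than the side after it in 7 of 8 (exact p = 0.0156). These tests compare the same stretches of DNA in 8 mice, so they show only that the mice repeat the same order. The sides held from 38 (before HoxA) to 334 (before HoxD) measured cytosines, fewer than any cluster. Homeobox genes outside 2 of the clusters were also low: the window of Evx2, beside Hoxd13, read 2.29% ± 0.566 in the cocaine mice and 2.35% ± 0.558 in the saline mice, and that of Evx1, beyond Hoxa13, read 4.03% ± 0.611 in the cocaine mice and 4.26% ± 0.137 in the saline mice (SD, n = 4 each).

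**Figure D2:**
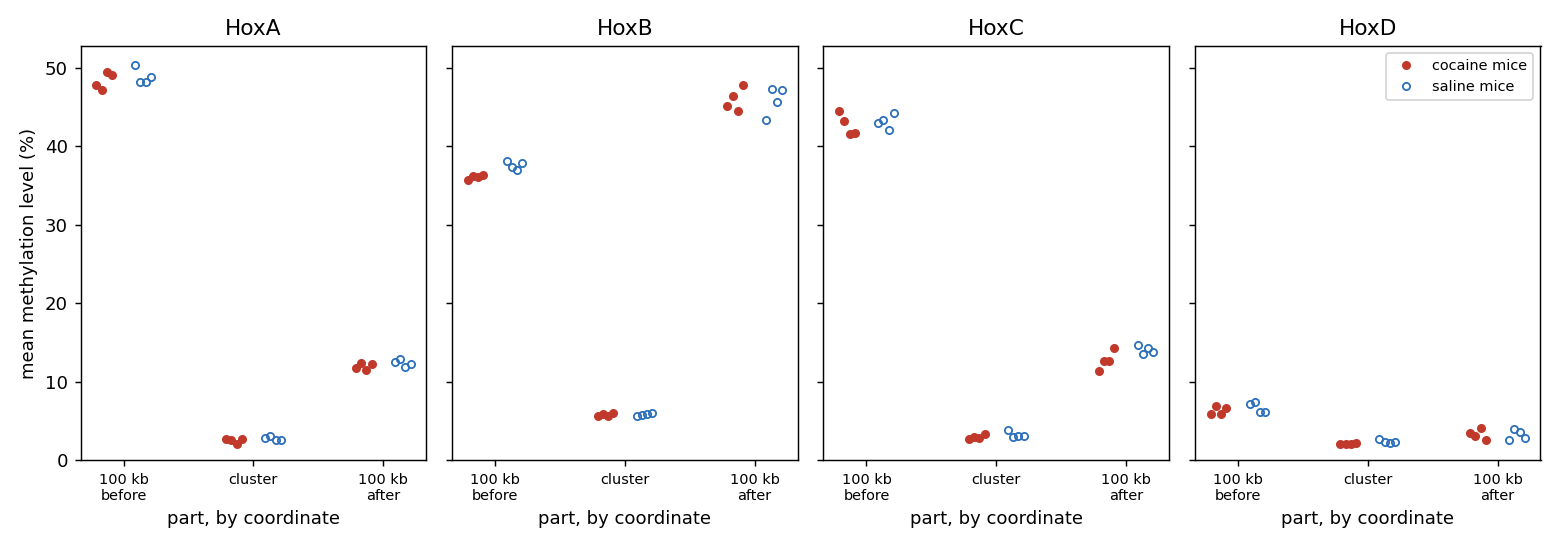
Mean methylation level (%, vertical axis) of each Hox cluster and of the 100 kb before and after it by coordinate, 1 point per mouse, cocaine filled and saline open. The clusters lie between 2.03% and 6.06% in all mice, the sides of HoxA, HoxB and HoxC between 11.4% and 50.4%, and the sides of HoxD between 2.60% and 7.39%.

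Methylated cytosines inside the clusters were few and concentrated. Only 91 of the 4610 Hox cytosines had a pooled level of 20% or more, in 34 spots (runs with gaps of at most 1000 bp), and 29 of the 91 lay inside a gene span. The stretch between Hoxb13 and Hoxb9 (chr11:96196611-96271329, 74.7 kb) held 43 of the 91 and 34 of the 37 cytosines above 80%. It read 14.2%, 15.1%, 13.9% and 14.9% in the cocaine mice and 14.8%, 14.5%, 14.4% and 14.9% in the saline mice, and the rest of HoxB read 2.58% ± 0.0781 in the cocaine mice and 2.58% ± 0.218 in the saline mice (SD, n = 4 each). Without the stretch, HoxB thus lies among the other clusters. Hoxb13 stands apart from the other HoxB genes, and this stretch was picked out after its values were seen, so no test is given for it.

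The largest methylated spot there, 24 cytosines at chr11:96248605-96248945, read 86.2% ± 2.77 in the cocaine mice and 86.0% ± 1.46 in the saline mice. The spot nearest to Hoxb13, chr11:96208578-96208768 with 4 cytosines, read 75.9% ± 5.18 in the cocaine mice and 80.9% ± 1.97 in the saline mice. Outside the stretch, single cytosines above 80% were found in the Hoxb9 span at chr11:96271811 (100% in all mice), 364 bp from Hoxb5 at chr11:96303148 (94.95% ± 2.80 in the cocaine mice and 97.7% ± 2.34 in the saline mice) and 3460 bp from Hoxd1 at chr2:74759520 (88.2% ± 5.45 in the cocaine mice and 92.0% ± 7.01 in the saline mice). HoxA and HoxC had none. Their highest spots were intermediate: a single cytosine in Hoxa13 at chr6:52260358 read 54.1% ± 10.4 in the cocaine mice and 59.6% ± 7.77 in the saline mice, and a single cytosine in Hoxc4 at chr15:103029898 read 51.9% ± 12.3 in the cocaine mice and 45.1% ± 12.4 in the saline mice. These spots are ranked by their mean. Within a spot of 4 cytosines in the Hoxc13 span, 1 cytosine at chr15:102923132 read higher in saline, with means of 51.0% in the cocaine mice and 66.5% in the saline mice. SDs are over 4 mice per group.

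**Figure D3:**
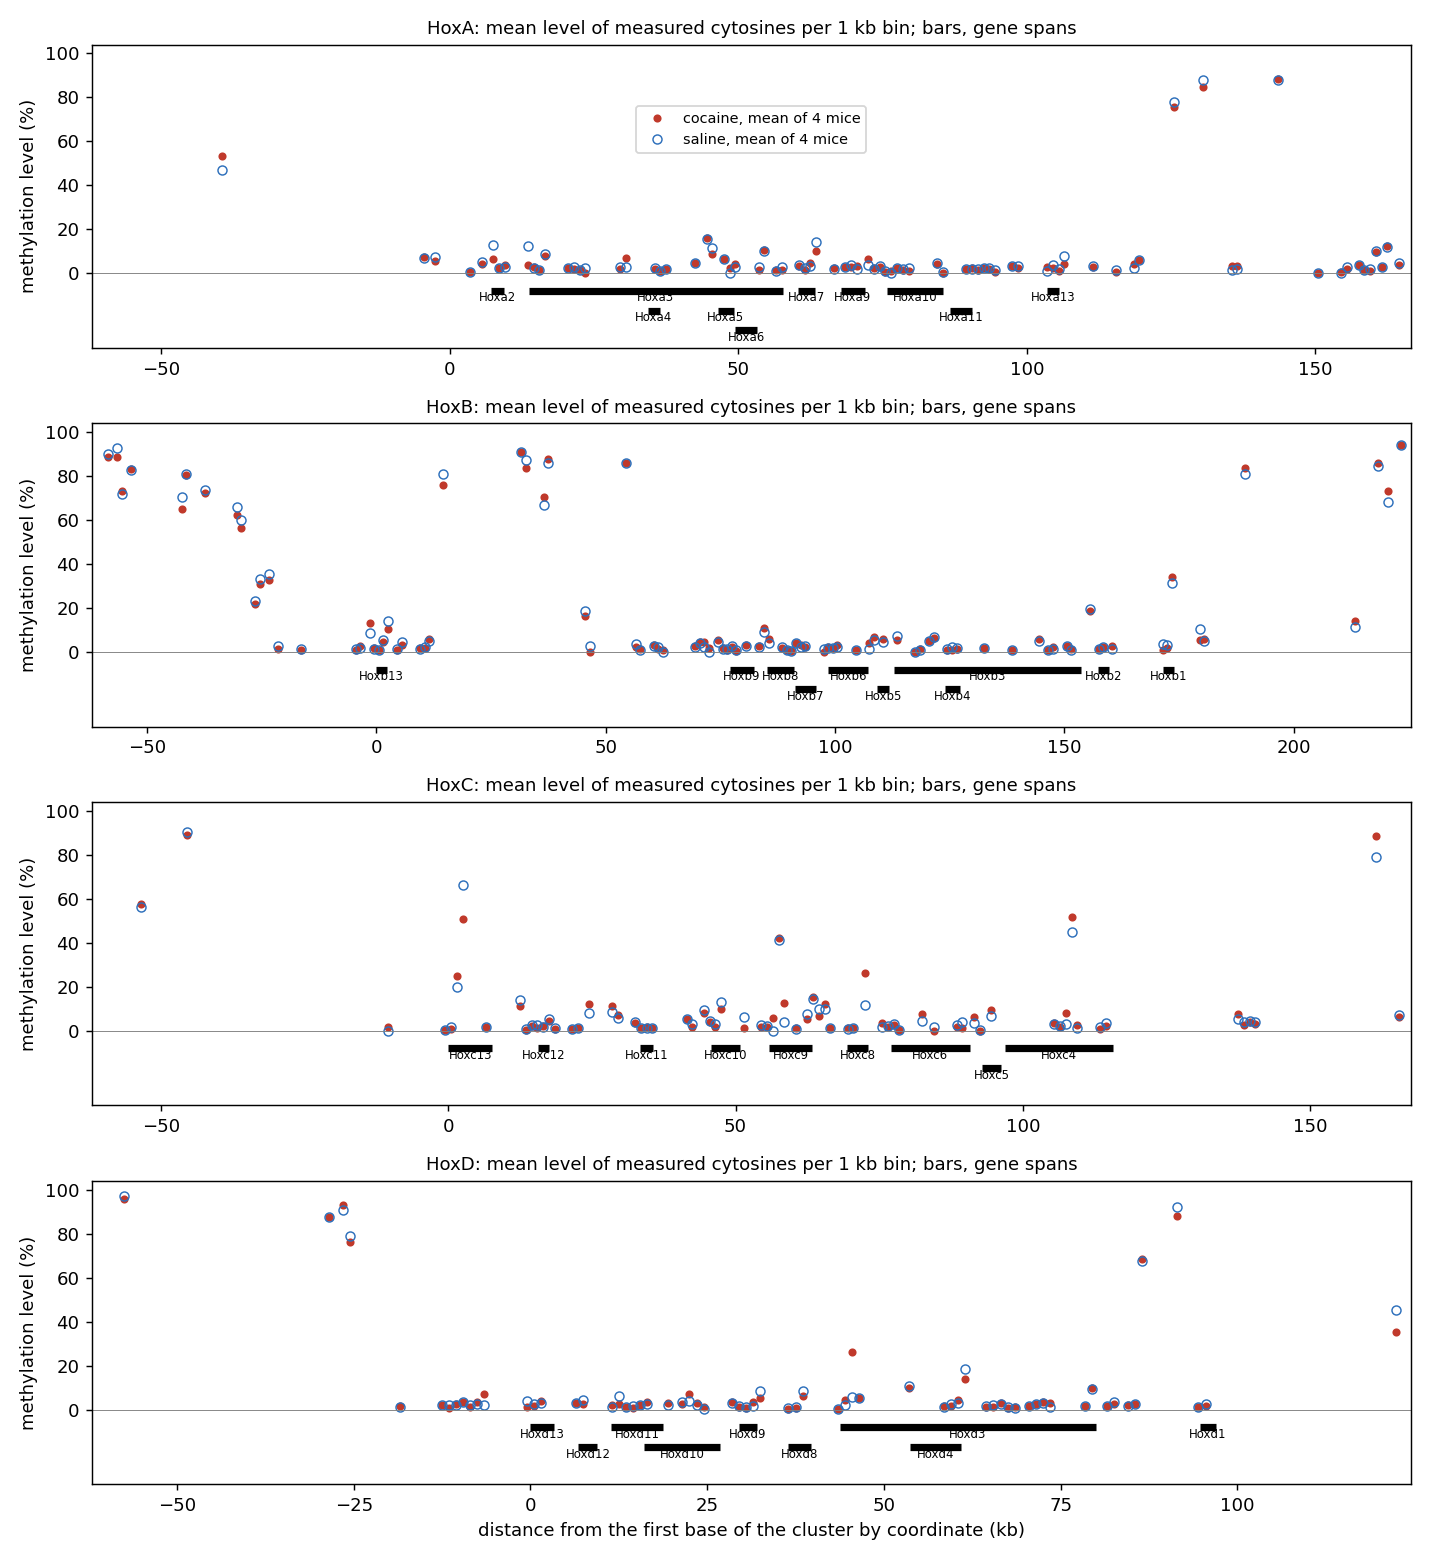
Methylation level (%, vertical axis) along each cluster and 60 kb either side, as the mean of the measured cytosines in bins of 1 kb, against distance in kb from the first base of the cluster. Filled points are means of the 4 cocaine mice, open points means of the 4 saline mice, and black bars are the spans of genes reported singly. Bins near 0% run through each cluster, broken in HoxB by bins around 80% between Hoxb13 and Hoxb9 and in HoxC and HoxD by single bins above 40%.

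No difference between cocaine and saline passed the test in any cluster taken whole. The mean level was 2.54% ± 0.282 in the cocaine mice and 2.79% ± 0.215 in the saline mice in HoxA (difference -0.253 points, adjusted p = 0.974), 5.81% ± 0.168 in the cocaine mice and 5.85% ± 0.164 in the saline mice in HoxB (-0.0339 points, adjusted p = 0.983), 2.99% ± 0.260 in the cocaine mice and 3.26% ± 0.381 in the saline mice in HoxC (-0.270 points, adjusted p = 0.995) and 2.11% ± 0.105 in the cocaine mice and 2.39% ± 0.198 in the saline mice in HoxD (-0.287 points, adjusted p = 0.962; SD, n = 4 each; quasi-binomial test fitted over all tiles and the 4 clusters, Benjamini-Hochberg). None of the 14598 tiles and clusters passed (0%; smallest adjusted p = 0.708), and no cluster reached an unadjusted p under 0.05, which 4.94% of them did. Groups without overlap and with cocaine lower, as in HoxD, occurred in 5.19% of tiles and clusters. A lower mean in cocaine is the common case, found in 77% of them with a median difference of -0.645 points. Without saline mouse 1 the differences were -0.224 points in HoxA, -0.0960 points in HoxB, -0.0803 points in HoxC and -0.190 points in HoxD. The HoxA difference was -0.113 points without cocaine mouse 3 and -0.166 points without saline mouse 2, and with at least 20 reads per cytosine the HoxD difference was -0.178 points.

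The 39 gene windows ranged in mean level from 1.58% to 6.47% with a median of 2.62%, against a median of 25.8% over all 17451 protein-coding gene windows. This placed each of them between percentiles 6.89 and 17.2. A level under 5% was found in 36 of the 39, and in 14.3% of all windows. HoxA held both ends of this range. Its highest window, Hoxa5, read 6.44% ± 1.05 in the cocaine mice and 6.49% ± 0.353 in the saline mice, and its lowest, Hoxa4, which lies beside it and acts in the neck vertebrae, 1.69% ± 0.615 in the cocaine mice and 1.48% ± 0.183 in the saline mice.

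In HoxB the highest window was that of Hoxb1, a gene of the hindbrain, at 5.35% ± 0.757 in the cocaine mice and 6.81% ± 1.14 in the saline mice; with 16 cytosines it is also the thinnest. The lowest was Hoxb7, at 2.08% ± 0.177 in the cocaine mice and 2.01% ± 0.306 in the saline mice. In HoxC the highest by the mean of the 8 mice was Hoxc10, a gene of the lumbar spinal cord and hindlimb, at 3.64% ± 0.389 in the cocaine mice and 4.90% ± 1.61 in the saline mice, and the lowest Hoxc12, at 1.74% ± 0.262 in the cocaine mice and 2.22% ± 0.249 in the saline mice. Without saline mouse 1, which read 7.30% in Hoxc10, Hoxc5 was highest, at 4.31% against 3.84% for Hoxc10. In HoxD the highest was Hoxd4, a gene of the hindbrain and upper spine, at 3.46% ± 0.691 in the cocaine mice and 3.98% ± 0.734 in the saline mice, and the lowest Hoxd10, at 1.60% ± 0.153 in the cocaine mice and 1.73% ± 0.204 in the saline mice (SD, n = 4 each throughout). These ranks are of windows, and gene spans alone differed. By the mean of the 8 mice, the Hoxa5 (3.61%) and Hoxb1 (6.18%) spans were still highest in their clusters. The Hoxb7 span read 3.12%, above Hoxb4 (1.33%), and the Hoxc12 span 2.53%, above Hoxc11 (1.15%). The Hoxc10 span read 5.71%, below Hoxc5 (8.04%). In HoxD, the Hoxd10 span read 2.56%, above Hoxd9 (1.11%), and the Hoxd4 span 2.63%, below Hoxd12 (3.58%).

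Ordered by paralogue number, the mean of the window levels was 4.06% in group 1, 3.40% in group 2, 2.77% in group 3, 2.62% in group 4, 4.92% in group 5, 4.07% in group 6, 2.39% in group 7, 2.38% in group 8, 2.68% in group 9, 2.67% in group 10, 2.08% in group 11, 2.01% in group 12 and 2.38% in group 13. Groups 5, 6 and 1 were highest and groups 12 and 11 lowest. The ranges of single genes overlap between most groups: group 1 ran from 2.49% (Hoxd1) to 6.08% (Hoxb1) and group 4 from 1.58% (Hoxa4) to 3.72% (Hoxd4). This order is a description over 2 to 4 genes a group, whose windows share cytosines with their neighbours.

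No difference between cocaine and saline passed the test in a Hox gene window. None of the 39 reached the threshold (adjusted p under 0.05 and at least 5 points), nor did any of the 17451 windows (0%); the smallest adjusted p was 0.882 among Hox windows and 0.868 among all. The 36 Hox windows under 5% had almost no room for a fall of 5 points. The absence of a lower call there thus says little, though no adjusted p was under 0.05 at any size of difference. No Hox window reached an unadjusted p under 0.05, which 5.48% of all windows did. The differences ran from -1.46 points (Hoxb1) to 0.893 points (Hoxb5) with a median of -0.155 points, against -0.435 points over all windows. The mean was lower in cocaine in 25 of the 39, beside 70.8% of all windows: in 8 of 11 genes of HoxA, 5 of 10 of HoxB, 4 of 9 of HoxC and 8 of 9 of HoxD.

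Of the windows with a lower mean in cocaine, Hoxd13 had the smallest p. It read 1.60%, 2.38%, 2.15% and 2.16% in the cocaine mice and 4.57%, 2.64%, 2.70% and 2.81% in the saline mice (-1.11 points, adjusted p = 0.882, quasi-binomial test). The groups do not overlap, and the difference was -0.646 points without saline mouse 1 and -0.445 points with at least 20 reads per cytosine. Hoxa13 read 2.38%, 1.497%, 1.00% and 1.93% in the cocaine mice and 4.82%, 3.78%, 1.61% and 1.35% in the saline mice (-1.19 points, adjusted p = 0.886). Saline mice 1 and 2 were high and the other two lay within the cocaine range; the difference without saline mouse 1 was -0.543 points. Hoxc10 read 3.15%, 3.89%, 3.51% and 4.01% in the cocaine mice and 7.30%, 4.08%, 3.92% and 4.29% in the saline mice (-1.26 points, adjusted p = 0.902). Saline mouse 1 alone was high, and without it the difference was -0.455 points.

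Of the windows with a higher mean in cocaine, Hoxb8, a gene of the trunk, read 3.02%, 2.71%, 2.71% and 2.50% in the cocaine mice and 2.01%, 2.12%, 2.82% and 3.06% in the saline mice (0.233 points, adjusted p = 0.912, quasi-binomial test). Its groups overlap, and the difference was 0.0693 points without saline mouse 1, 0.108 points without saline mouse 2, 0.137 points without cocaine mouse 1 and 0.418 points without saline mouse 4. The neighbours Hoxc5 and Hoxc6, whose windows share cytosines, followed. Hoxc5 read 4.69%, 3.39%, 2.96% and 5.84% in the cocaine mice and 1.45%, 4.14%, 4.69% and 4.48% in the saline mice (0.532 points, adjusted p = 0.928), and Hoxc6 read 3.96%, 2.99%, 2.68% and 5.25% in the cocaine mice and 1.91%, 3.49%, 3.95% and 3.55% in the saline mice (0.499 points, adjusted p = 0.930). In both, saline mouse 1 was the lowest and the groups overlap. Without saline mouse 1, Hoxc5 turned to -0.215 points and Hoxc6 stood at 0.0601 points. Without cocaine mouse 4 they stood at -0.00914 and -0.0105 points, and without cocaine mouse 3 at 0.951 and 0.846 points. Hoxc5 stood at 0.809 points without cocaine mouse 2 and 0.865 points without saline mouse 3. With at least 20 reads they stood at 1.39 and 0.916 points.

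Groups without overlap were found in 3 Hox windows, all lower in cocaine: Hoxd13, Hoxd12 and Hoxb4, 7.69% of the 39 beside 4.54% of all windows. Hoxd12, next to Hoxd13, read 1.89%, 1.82%, 1.76% and 1.95% in the cocaine mice and 2.43%, 2.01%, 2.20% and 2.30% in the saline mice (-0.380 points, adjusted p = 0.930, quasi-binomial test). Hoxb4 read 1.80%, 1.80%, 1.89% and 1.75% in the cocaine mice and 1.91%, 3.09%, 2.19% and 2.22% in the saline mice (-0.538 points, adjusted p = 0.960). These differences are under 1 point of level in both genes, and that of Hoxb4 was -0.291 points without saline mouse 2 and -0.276 points with at least 20 reads. No Hox window had groups without overlap and cocaine higher, which 0.378% of all windows had. Hoxd12 and Hoxb4 were named after their values were seen.

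**Figure D4:**
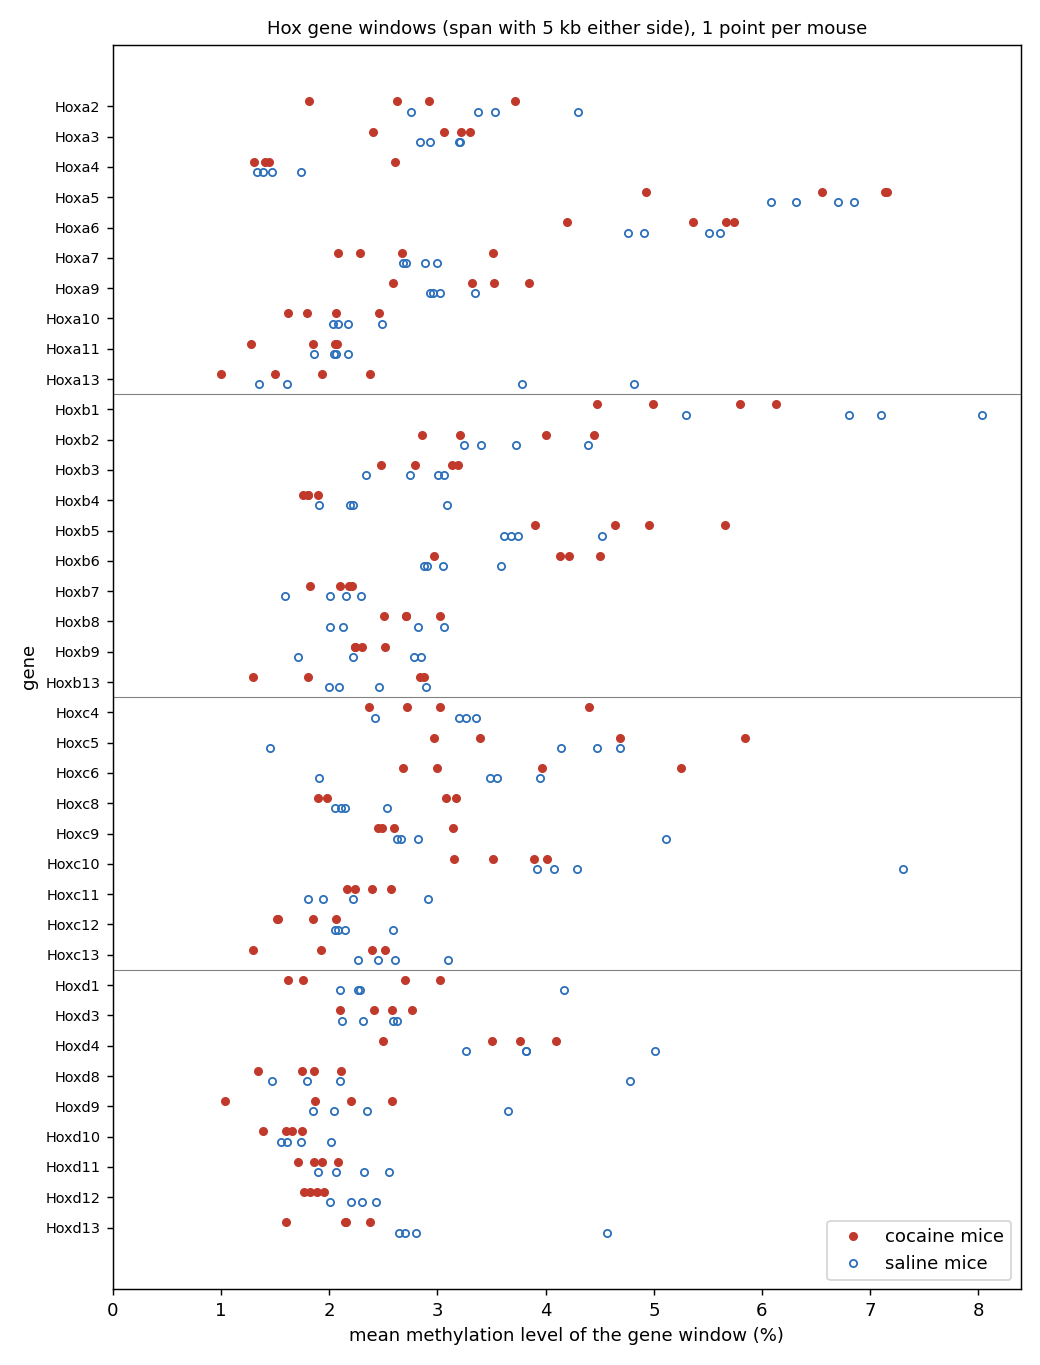
Mean methylation level (%, horizontal axis) of the Hox gene windows reported singly, with genes down the page by cluster and 1 point per mouse, cocaine filled and drawn above saline, open. Cocaine and saline points overlap in the genes drawn except Hoxd13, Hoxd12 and Hoxb4; the isolated open points near 7.30% for Hoxc10, 5.11% for Hoxc9 and 4.57% for Hoxd13 are all saline mouse 1.

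Around gene starts (1 kb either side; both gene ends where the strand is not in the tables used here), 48 windows of 37 genes could be measured, 21 genes at a start of known strand and 16 at their ends. Levels in these 48 windows ran from 0.193% (an end of Hoxc5) to 10.3% (the Hoxd4 start). Their median was 2.03%, and 41 of the 48 were under 5%. Start windows of other genes were low too: over all 16227 the median was 0.821%, below the Hox median, and 79.4% were under 5%. A level under 5% was thus common in start windows, gene ends included, and uncommon over whole gene windows.

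No start window of a Hox gene passed the threshold (adjusted p under 0.05 and at least 5 points), as for all starts (0%; smallest adjusted p = 0.708 in both). The 41 Hox start windows under 5% had almost no room for a fall of 5 points. At an unadjusted p under 0.05 there were 3 of 48, 6.25%, beside 6.48% of all. They were named after their values were seen, and each had an adjusted p of 0.708 (quasi-binomial test). The Hoxa5 start, which holds the Hoxa5 promoter printed above, read 3.23%, 1.75%, 1.82% and 5.14% in the cocaine mice and 0.626%, 1.39%, 1.14% and 1.66% in the saline mice, a difference of 1.78 points, or 1.06 points without cocaine mouse 4. The Hoxb1 start read 1.19%, 1.197%, 0.544% and 2.12% in the cocaine mice and 2.92%, 4.33%, 3.52% and 2.50% in the saline mice, a difference of -2.05 points over 14 cytosines. The Hoxc4 start read 0.575%, 0.703%, 1.41% and 1.15% in the cocaine mice and 1.91%, 1.86%, 1.91% and 1.52% in the saline mice, a difference of -0.837 points, or -0.0394 points with 500 bp either side.

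The groups do not overlap at these 3 starts, with cocaine above saline at Hoxa5 and below it at Hoxb1 and Hoxc4. The mean was lower in cocaine at 31 of the 48, beside 59.2% of all. Groups without overlap and cocaine lower were found at 5 Hox start windows, 10.4% beside 2.65% of all, and with cocaine higher at 1, 2.08% beside 0.573% of all. The 5 were the starts of Hoxb1, Hoxc4 and Hoxd12 and the ends at the lower coordinate of Hoxb9 and Hoxc13, which share no cytosines. Other start windows of neighbouring genes can share cytosines, and no test of these counts is given. The Hoxd13 start, which holds the printed promoter, read 0.709%, 1.87%, 1.99% and 1.45% in the cocaine mice and 5.30%, 2.28%, 2.04% and 1.47% in the saline mice (adjusted p = 0.710). There the groups overlap, unlike in the 250 bases of the promoter.

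Regions, runs of at least 3 CpGs with gaps of at most 100 bp, were the finest scale at which several cytosines were pooled. The clusters held 255 of the 125876 regions. Only 48 of the 255 (18.8%) had a pooled level from 5% to 95% and were tested, against 73.5% of all regions; the other 207 were all below 5%. A region with so low a level has little room for a difference of 10 points. None of the 48 passed the threshold (10 points or more, with adjusted p under 0.05), nor did any of the 92484 regions tested (0%; smallest adjusted p = 0.249). The smallest adjusted p in a Hox region was 0.876. At an unadjusted p under 0.05 there were 3 of 48, 6.25%, beside 5.65% of all, and the mean was lower in cocaine in 26 of 48, beside 61.4% of all. Groups without overlap were found in 1 tested region with cocaine lower, beside 2.6% of all, and in 2 with cocaine higher, beside 0.682% of all. Without the filter on level, 10 of the 255 had an unadjusted p under 0.05, beside 6.43% of all.

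Lower in cocaine with the smallest p was a region of 7 CpGs between Hoxd9 and Hoxd8 (chr2:74701004-74701103), which read 5.44%, 5.99%, 0.439% and 6.15% in the cocaine mice and 24.0%, 8.13%, 7.004% and 7.33% in the saline mice (-7.10 points, adjusted p = 0.876, quasi-binomial test). Its cytosines had a mean of 27.5 reads per library, against a median of 62.3 over all Hox cytosines. The groups do not overlap, cocaine mouse 3 is far below and saline mouse 1 far above their groups, and without saline mouse 1 the difference was -2.98 points. A region in Hoxa2, the gene that patterns the second branchial arch (chr6:52163296-52163437), read 9.29%, 7.81%, 3.85% and 6.56% in the cocaine mice and 16.5%, 13.6%, 9.91% and 6.21% in the saline mice (-4.67 points, adjusted p = 0.876). The groups overlap by the saline mouse at 6.21%, and without saline mouse 1 the difference was -3.03 points. Next came a region beside Hoxa13 (chr6:52261855-52262094) at 4.27% ± 2.38 in the cocaine mice and 7.92% ± 2.45 in the saline mice (adjusted p = 0.886) and a region in Hoxa9 (chr6:52224341-52224476) at 3.91% ± 2.44 in the cocaine mice and 6.09% ± 2.89 in the saline mice (adjusted p = 0.896; SD, n = 4 each). The Hoxa9 difference was -2.17 points, -1.26 points without cocaine mouse 4 and -0.775 points without saline mouse 3. In the regions between Hoxd9 and Hoxd8 (4.51%), beside Hoxa13 and in Hoxa9, the cocaine mean lay under the 5% floor of the filter. By these means they reached the floor through the saline mice, so their direction is tied to the filter.

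Higher in cocaine with the smallest p was a region of 11 CpGs between Hoxc12 and Hoxc11 (chr15:102945576-102945865), which read 11.2%, 10.6%, 12.2% and 14.0% in the cocaine mice and 6.77%, 7.62%, 8.40% and 9.69% in the saline mice (3.87 points, adjusted p = 0.876, quasi-binomial test). The groups do not overlap and no single mouse stands apart; without saline mouse 1 the difference was 3.42 points. A region in the Hoxa3 span (chr6:52199921-52200120), which also lies in the windows of Hoxa5 and Hoxa6, read 24.3%, 28.3%, 17.97% and 25.4% in the cocaine mice and 24.7%, 22.6%, 18.8% and 16.4% in the saline mice (3.37 points, adjusted p = 0.881), with overlapping groups. It stood at 1.93 points without cocaine mouse 2, 5.37 points without cocaine mouse 3, 1.96 points without saline mouse 4 and 6.54 points with gaps of at most 50 bp. The remaining regions were in Hoxc5 (chr15:103015552-103015731), at 9.35% ± 5.37 in the cocaine mice and 6.73% ± 3.47 in the saline mice (adjusted p = 0.888), and in Hoxb5 (chr11:96304988-96305117), at 6.86% ± 1.44 in the cocaine mice and 4.97% ± 1.94 in the saline mice (adjusted p = 0.895; SD, n = 4 each). The Hoxc5 difference was 2.62 points, 0.965 points without saline mouse 1, 0.300 points without cocaine mouse 4, 4.41 points without cocaine mouse 3 and 4.22 points with at least 20 reads. The Hoxb5 difference was 1.89 points, and 1.11 points without saline mouse 1. The saline mean of the Hoxb5 region lay under the 5% floor of the filter. By these means it reached the floor through the cocaine mice, so its direction is tied to the filter.

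**Figure D5:**
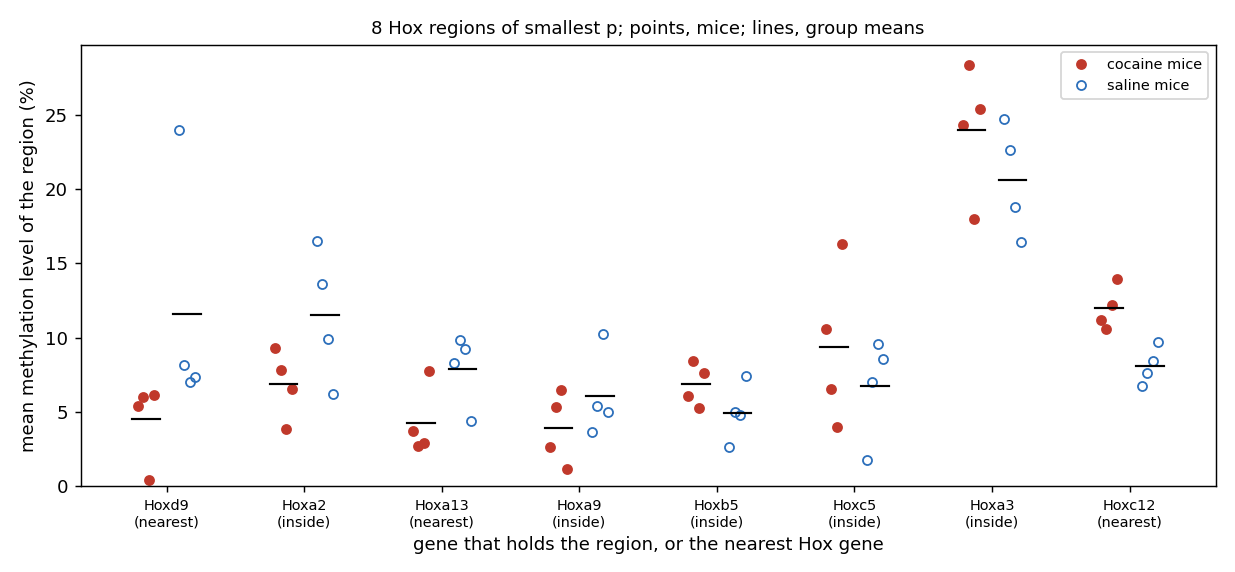
Mean methylation level (%, vertical axis) of the 4 Hox regions of smallest p in each direction, 1 per gene, named by the gene that holds them or the nearest one, with 1 point per mouse (cocaine filled and left, saline open and right) and lines at group means. The groups are apart in the regions near Hoxd9 and Hoxc12 and overlap in the other 6; the open point at 24.0% near Hoxd9 is saline mouse 1.

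At single cytosines, 605 of the 4610 Hox cytosines (13.1%) had a pooled level from 5% to 95%, beside 44.1% of all. None of the 605 passed the same threshold as regions, which 1 of all 666028 passed (0.00015%), and the smallest adjusted p was 0.655. At an unadjusted p under 0.05 there were 53 (8.76%), beside 6.1% of all tested cytosines. Both under 0.05 and lower in cocaine were 33 of the 605, beside 4.12% of all 666028. Counted only among cytosines under 0.05, 33 of the 53 were lower in cocaine, beside 27433 of 40654 over all. The mean was lower in cocaine at 322 of the 605, beside 56.9% of all. Groups without overlap were found at 8 cytosines with cocaine lower (1.32%, beside 1.98% of all) and at 11 with cocaine higher (1.82%, beside 0.95% of all).

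The genes that work with Hox proteins or regulate the clusters were described in the same way. All 31 of the list had a window: 9 cofactors (Pbx, Meis and Pknox, which bind DNA beside Hox proteins), 4 activators (Kmt2a and the Cdx genes), 16 Polycomb genes and 2 H3K27 demethylases. None passed the threshold, and the mean was lower in cocaine in 21 of the 31, with a median of -0.334 points, beside 70.8% and -0.435 points over all windows: 6 of 9 cofactors, 4 of 4 activators, 11 of 16 Polycomb genes and neither demethylase. At an unadjusted p under 0.05 there were 2 of 31, beside 5.48% of all windows, both with an adjusted p of 0.868 (quasi-binomial test). Ring1, a ubiquitin ligase of Polycomb complex 1, read 5.89% ± 0.487 in the cocaine mice and 6.95% ± 0.752 in the saline mice, and the cofactor Pknox1 read 19.7% ± 1.16 in the cocaine mice and 20.1% ± 0.605 in the saline mice. The test weighs cytosines by their reads, and the difference between the Pknox1 means over cytosines was -0.334 points. Among those with a higher mean in cocaine, the demethylase Kdm6b read 23.5% ± 0.883 in the cocaine mice and 23.4% ± 1.02 in the saline mice (adjusted p = 0.891), and the cofactor Pknox2 29.7% ± 0.876 in the cocaine mice and 29.7% ± 0.771 in the saline mice (adjusted p = 0.921; SD, n = 4 each).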

How the data were processed

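RRBS libraries of 8 mice, 4 per group, were analysed from the authors' tables of CpG cytosines. Per the submitters' processing notes, bcl2fastq and Bismark version 22.1 were used with build mm10; the sources used here do not give trimming, duplicate removal or the enzyme. The deposited methylation level is a fraction from 0 to 1, although per the file headers it is a percent. Coverage, the deposited read count per cytosine, was at least 10; level times coverage gave whole methylated reads at 100% of cytosines, within 5e-07 times the coverage. Reads carry no molecular identifiers in the labels, so copies of 1 molecule may be counted.

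Gene positions were taken from RefSeq (GRCm38.p6, with the coordinates of mm10), which gave no strand or exons; starts came from the RefSeq promoter table where it held the gene. Printed levels are equally weighted means over cytosines, in percent. Methylated and unmethylated reads were summed per feature and mouse and tested by quasi-binomial logistic regression on group, with the dispersion moderated across features by limma 3.58.1 (squeezeVar with a trend on coverage, floor 1; R 4.3.3, Python 3.11.15, numpy 2.4.6), an F test and Benjamini-Hochberg adjustment over all features of a kind. Features needed at least 20 cytosines (100 kb tiles), 5 cytosines (gene and start windows) or 3 CpGs (regions); regions and cytosines had a pooled level from 5% to 95%. Calls needed an adjusted p under 0.05 and 5 points (windows and starts) or 10 points (regions and cytosines). The code was tested on simulated data.

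Named in detail were the 4 Hox regions (1 per gene) and 3 Hox windows of smallest p in each direction, the highest and lowest window of each cluster, and 2 windows per direction from the list of cofactors and regulators. Other windows, starts, cytosines and spots given with values were named after their values were seen; 1 Hox gene is counted in the summaries and not reported here singly. The members, the lists and this rule were chosen with earlier results of these data known. Alternatives were a minimum of 20 reads, other windows, gaps, tiles and strands, limma, and no filter on level. Each mouse was also left out, and the replicate number was used as a block. Limma used levels for tiles, clusters, windows and starts, and log ratios of methylated to unmethylated reads for regions and cytosines.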

Additional observations from a re-analysis of the deposited data

Results flagged for a closer look

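In 108 groups of 4 mice, 13 values lay far from the other 3 mice of their group by Dixon's test at the 95% level; chance gives such a value in about 1 group in 20, and here it was 12.04% of groups. Over all gene windows it was 7.11% of cocaine groups and 7.72% of saline groups. The 108 groups include features that overlap and features named for a small p, so these shares are not set against each other. Saline mouse 1 held 8 of the 13. Over all 17451 gene windows it held such a value in 3.82%, against 0.905% to 2.55% for the other mice.

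Saline mouse 1 read 7.30% in the Hoxc10 window (other saline mice 3.92% to 4.29%), 5.11% in Hoxc9 (2.63% to 2.82%), 4.57% in Hoxd13 (2.64% to 2.81%), 4.17% in Hoxd1 (2.10% to 2.28%) and 3.83% over the HoxC cluster (3.03% to 3.10%). It was low in the Hoxc5 window at 1.45% (4.14% to 4.69%) and in Hoxc4 at 2.42% (3.20% to 3.35%). In the region between Hoxd9 and Hoxd8 it read 24.0% (7.004% to 8.13%).

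Cocaine mouse 3 read 0.439% in that same region (other cocaine mice 5.44% to 6.15%) and 2.12% over the HoxA cluster (2.64% to 2.71%). Cocaine mouse 1 read 2.61% in the Hoxa4 window (1.30% to 1.44%). Saline mouse 4 read 4.53% in the Hoxb5 window (other saline mice 3.62% to 3.75%) and 1.52% at the Hoxc4 start (1.86% to 1.91%). Their part in the group differences was not tested beyond leaving out each mouse.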

How the results depend on the processing

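No Hox cluster, window, start, region or cytosine was called under any alternative run. The smallest adjusted p among 480 alternatives to 34 named values was 0.273, and 37 of the 480 turned the sign of a difference; the cause was not tested. With single mice left out (or saline mouse 1 and cocaine mouse 3 together), the HoxB cluster difference ran from -0.0961 to 0.0372 points and the number of Hox windows lower in cocaine from 19 to 30 of 39. The same settings turned the sign of window differences in Hoxa4 (-0.0999 to 0.335), Hoxa5 (-0.279 to 0.461), Hoxb7 (-0.0709 to 0.202), Hoxc5 (-0.215 to 0.951), Hoxc6 (-0.0105 to 0.846), Pknox1 (-0.831 to 0.0701), Kdm6b (-0.286 to 0.508) and Pknox2 (-0.228 to 0.399 points). With at least 20 reads, Hoxa5 stood at 0.266, Hoxd10 at 0.115, Kdm6b at -0.274 and Pknox2 at -0.482 points. In gene spans alone, Hoxb8 stood at -0.144, Hoxc6 at -0.809, Hoxa5 at 1.04, Hoxd10 at 0.540, Kdm6b at -0.0234 and Pknox2 at -0.00286 points. With 2 kb either side, Hoxc6 stood at -0.0398, Hoxa5 at 0.140 and Hoxa4 at -0.0766 points.

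Over all cytosines 1 was called, against 0 to 27 with 1 mouse left out (26 without saline mouse 3, 27 without saline mouse 4), 3 with strands merged, and 0 with limma, with no filter on level and with each cytosine's own dispersion. The labels do not say whether the replicate numbers pair the mice. Same-numbered mice correlated at -0.0170, -0.00920, 0.00511 and 0.0782 in their deviations from the group means. Mice with different numbers correlated at -0.139 to 0.0640. Deviations from a mean of 4 mice are not independent, so these values do not settle whether the mice are paired. With the replicate number as a block, 0 cytosines and 1 region were called over the genome, none of them in a Hox cluster, and the cluster differences had adjusted p from 0.948 to 0.988 (quasi-binomial). Levels near 0% leave little room for a lower level.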
